A study of Sus scrofa domesticus with 6 samples.

Results

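The mevalonate pathway makes cholesterol, and it also makes the isoprenoid lipids that anchor small GTPases to membranes. Statins such as pravastatin block an early step of the pathway. When sterols fall, the SREBP2 protein moves from the endoplasmic reticulum to the nucleus and raises the genes of sterol synthesis, while the sterol-activated LXR receptors raise the genes of efflux. In the small intestine the same cells also absorb dietary sterols and pump some of them back into the lumen. The genes examined here are 45 symbols of this pathway, in 6 roles: the mevalonate arm, the sterol arm, sterol sensing, uptake and storage, efflux, and prenylation with its small GTPase targets. Rows of the deposited gene table were taken where the gene symbol equalled one of the 45. This found 44 symbols in 45 rows, of 30352 rows with a symbol. IDI1 had no row under that symbol and INSIG2 had 2, of which one is a pseudogene. That pseudogene held between 0 and 4 counts in each library and was the only row below the filter on low counts, so 44 rows were tested.

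RNA sequencing was done on small intestine of 6 wild-type Göttingen minipigs aged 6 months, 1 library per animal and 2 animals per group, with tissue taken on day 14. The control group was not irradiated, the IR group received 15 Gy of cobalt gamma rays to the abdomen, and the IR_Pra group received this exposure and 40 mg/day of oral pravastatin for 2 weeks. The labels name the drug as both Pra and PS, and they do not give a group that received pravastatin without irradiation, the segment of intestine, or the treatment of the controls beyond the word control. With 2 animals a group, the p-values below rest on a spread between animals pooled over the 3 groups. Fits that leave out 1 of the IR animals (IR 1 or IR 2) have no spread within IR. Their p-values rest on the spread within control and IR_Pra alone.

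Libraries held 48600424 to 73975174 counts, and all 11 epithelial markers were detected in every library. The summed level of these markers, in CPM (counts scaled to a common library total, with TMM factors), was 7660 and 8405 in control, 7560 in IR 1, 1680 in IR 2, and 8209 and 6960 in IR_Pra. Absorptive enterocyte markers summed to 23597 and 25998 CPM in control, 49530 in IR 1, 999 in IR 2, and 17143 and 17662 in IR_Pra. The sum in IR 1 was carried by 3 of the 11 markers, APOA1 (21049 CPM), FABP1 (12260) and APOA4 (8929): 6 markers were below both controls there and 4 above, with a median log2 ratio to control of -0.43. In IR 2 that median was -5.30. Macrophage markers summed to 764 and 778 CPM in control, while IR had 3650 and 3946 and IR_Pra had 1284 and 1917. Markers of liver and pancreas never summed to more than 4.99 CPM. IR 2 therefore stood apart in epithelial RNA, and both IR libraries in macrophage RNA. In bulk tissue, fewer cells of a type and less RNA per cell cannot be told apart. Log2 ratios to control also fell with transcript length in IR 1 (Spearman correlation across genes -0.383, a description), against -0.0541 in IR 2.

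**Figure D1:**
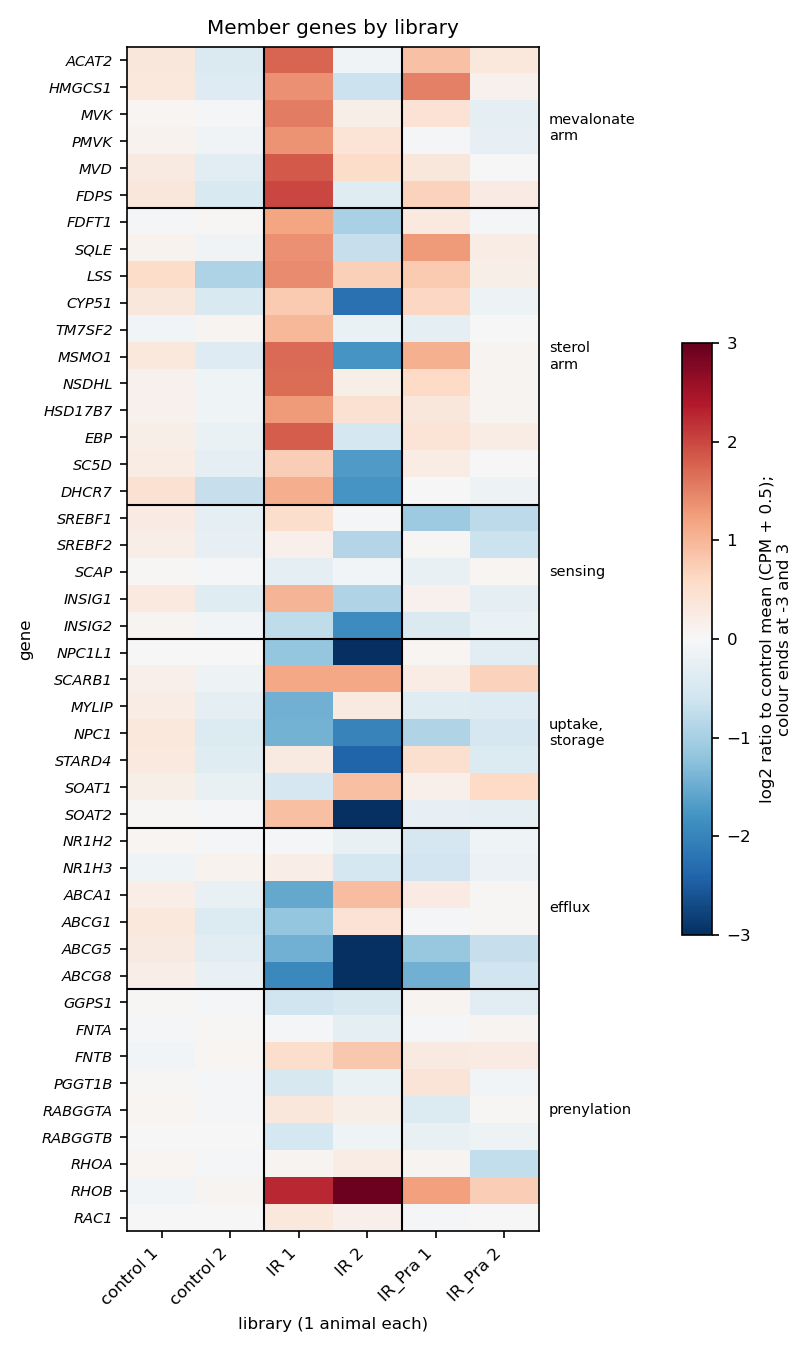
Log2 ratio of each tested member's CPM (plus 0.5) to the mean of the 2 controls, with genes in rows by role and the 6 libraries in columns. The synthesis genes are above the controls throughout IR 1 and split in IR 2, and RHOB is the darkest red row in both IR libraries.

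RHOB was the only member called with edgeR in IR against control, at an adjusted p under 0.05. It encodes a short-lived small GTPase that is induced by DNA damage and needs a farnesyl or geranylgeranyl anchor. RHOB (Entrez 100144503, Sscrofa11.1 chromosome 3, 117773400 to 117777569) had 46.0 and 50.9 CPM in control, compared with 234.8 and 374.7 in IR and with 113.8 and 80.9 in IR_Pra. The 3 groups did not overlap, with IR highest and IR_Pra between IR and control. It rose 6.29-fold in IR against control (log2 fold change 2.65 ± 0.34 SE, n = 2 against 2, adjusted p = 0.0370, edgeR's quasi-likelihood test). Against IR, the log2 difference in IR_Pra was -1.65 ± 0.33 (adjusted p = 0.0832), and against control it was 1.01 ± 0.33 (adjusted p = 0.9998, unadjusted p = 0.0219), so neither passed. Macrophage, smooth muscle, and fibroblast and matrix marker sums were also higher in both IR libraries than in any other library. Smooth muscle had 34102 and 72916 CPM in IR against 6493 to 22164 elsewhere. Fibroblast and matrix had 8329 and 25652 CPM in IR against 2033 to 7374 elsewhere. The part of these lists in the RHOB difference was not tested. Without control 1, control 2, IR_Pra 1 or IR_Pra 2 the adjusted p in IR against control was 0.238, 0.177, 0.101 and 0.101, while the log2 fold change stayed between 2.60 and 2.78. In IR_Pra against IR, DESeq2 gave RHOB an adjusted p of 0.000448, and edgeR gave 0.0103 without IR 1 and 0.0385 without IR 2. In IR against control the adjusted p was 0.0777 with a block for the replicate number and 0.0995 when only the 4 libraries of the comparison were fitted.

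In IR against control, RHOB was the 1 member of 44 called at an adjusted p under 0.05, where 6.06% of all 18197 genes were called (3.39% higher, 2.68% lower). An unadjusted p under 0.05 was reached by 9 members (6 higher, 3 lower), against 30.2% of all genes (16.4% higher, 13.8% lower). The IR and control libraries did not overlap for 22 members, 12 higher and 10 lower in IR, while 59.8% of all genes did not overlap (29.8% higher, 30% lower). DESeq2 called 4 members (ABCG8, NPC1, RHOB and SCARB1), against 22.7% of all genes. The members were thus called and separated no more often than all genes. In IR_Pra against IR no member passed with edgeR, and 0.0055% of all genes did. Of the members, 6 had an unadjusted p under 0.05 there (1 higher, 5 lower), against 24.5% of all genes (11.7% higher, 12.8% lower). DESeq2 called 2 members in that comparison, RHOB and SREBF1, against 15.9% of all genes, and limma voom called 0. The libraries did not overlap for 17 members (8 higher, 9 lower), against 53.9% of all genes (27.3% higher, 26.6% lower). In IR_Pra against control no member passed with edgeR, DESeq2 or voom, while edgeR called 0% of all genes and DESeq2 0.396%. An unadjusted p under 0.05 was reached there by 2 members, RHOB and SREBF1, against 3.42% of all genes, and 15 did not overlap (5 higher, 10 lower), against 40.8% of all genes (20.8% higher, 20% lower). That split depended on the scaling: with library size alone it was 10 higher and 9 lower among the members, and 4690 higher and 2745 lower among all genes. The 3 comparisons share groups, so their values for a gene are not independent of each other.

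The synthesis genes of the mevalonate and sterol arms separated the 2 irradiated animals from each other more than they separated the groups. IR 1 was above both controls for 17 of 17 synthesis genes, where 42.2% of all genes were, and was the highest of all 6 libraries for 16 (19.9% of all genes). IR 2 was above both controls for 6 of them (44.7% of all genes) and below both for 9 (43.2% of all genes). For 9 of the 17, both control values lay between the IR values, as they did for 17.9% of all genes. IR 1 was above IR 2 for all 17 (42.3% of all genes), by a median of 4.04-fold. The summed level of the 17 genes was 842 and 542 CPM in control, 1882 in IR 1, 500 in IR 2, and 1102 and 715 in IR_Pra. With the trend on transcript length removed, the log2 ratio of IR 1 to control stayed positive for all 17 genes. The values ran from 0.58 for SC5D to 1.92 for LSS. The ratio rose for HMGCS1 and LSS and fell for the others, as from 1.38 to 0.83 for PMVK and from 1.33 to 0.79 for HSD17B7. Epithelial markers, enterocyte markers, depth and the length trend differed between the IR libraries too, and their part in this split was not tested.

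**Figure D2:**
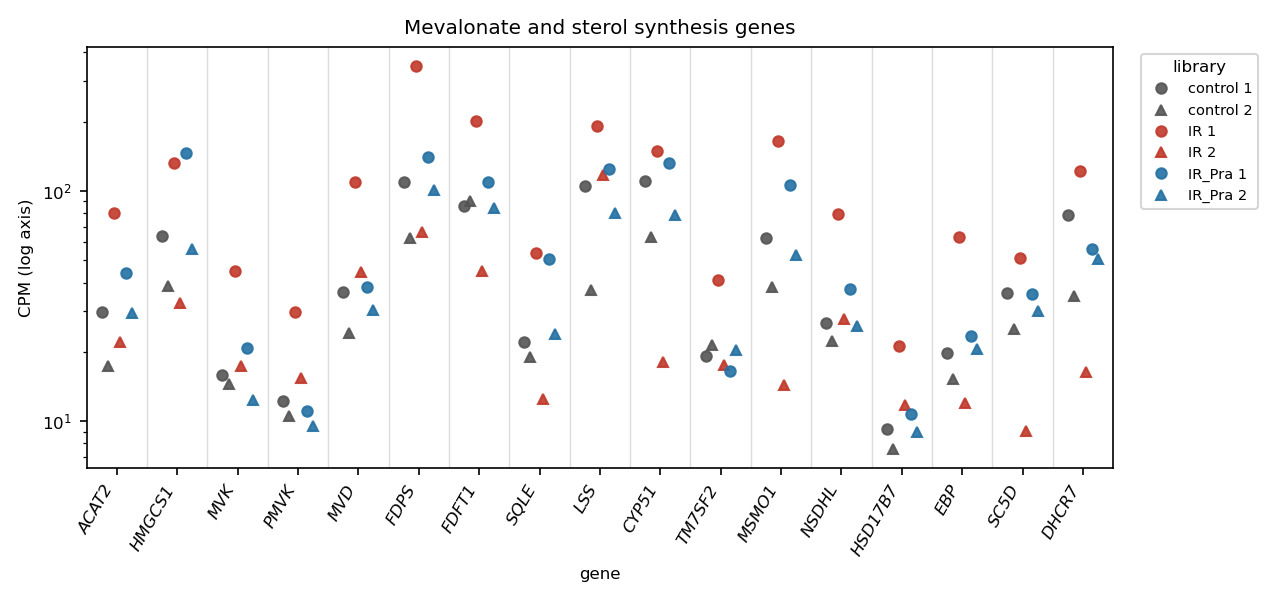
CPM on a log axis of the 17 tested synthesis genes, with 1 point per library (circle for animal 1, triangle for animal 2, grey for control, red for IR, blue for IR_Pra). The red circle is the highest point for every gene except HMGCS1, and the red triangle is below both grey points for 9 genes.

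The mevalonate arm turns acetyl-CoA into farnesyl diphosphate. Its 6 tested genes had a median log2 difference of 1.07 in IR against control, beside 0.03 over all genes. None passed with edgeR, DESeq2 or voom, and 2 had an unadjusted p under 0.05 with edgeR, against 30.2% of all genes. Without IR 1 that median was 0.04, and without IR 2 it was 1.66. MVD, which decarboxylates mevalonate diphosphate, had 36.3 and 24.2 CPM in control, against 109.2 and 44.4 in IR, and 38.3 and 30.5 in IR_Pra (1.34 ± 0.47, adjusted p = 0.124). PMVK, the second mevalonate pathway kinase, had 12.3 and 10.5 CPM in control, while IR had 29.7 and 15.4 and IR_Pra had 11.06 and 9.49 (0.98 ± 0.37, adjusted p = 0.142). MVK, the first kinase, had 15.9 and 14.5 CPM in control, compared with 44.7 and 17.4 in IR and with 20.7 and 12.3 in IR_Pra. For these 3 genes both IR libraries were above both controls, and for MVD and PMVK both were also above both IR_Pra libraries (-1.16 ± 0.47 and -1.13 ± 0.37 in IR_Pra against IR, adjusted p = 0.201 and 0.142). In IR against control, the log2 difference without IR 1 was 0.55 for MVD and 0.43 for PMVK, and without IR 2 it was 1.85 and 1.38. In IR_Pra against IR it was -0.36 and -0.58 without IR 1, and -1.66 and -1.53 without IR 2.

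The other mevalonate genes overlapped between control and IR, with IR 2 inside or below the range of the controls. FDPS, farnesyl diphosphate synthase, had 109.2 and 62.2 CPM in control, 347.9 in IR 1, 66.5 in IR 2, and 139.6 and 101.3 in IR_Pra. ACAT2, the thiolase that makes acetoacetyl-CoA, had 29.8 and 17.3 CPM in control, 79.9 in IR 1, 22.0 in IR 2, and 44.1 and 29.4 in IR_Pra. HMGCS1, which makes HMG-CoA, had 63.5 and 38.8 CPM in control, 132.5 in IR 1, 32.4 in IR 2, and 146.7 and 55.9 in IR_Pra. It was the 1 synthesis gene with its highest value in a pravastatin-treated animal. One row without the IDI1 symbol carries the product name isopentenyl-diphosphate delta-isomerase 1. It was looked up after the values were seen and is not a member. That row (LOC100625049) had 49.2 and 25.7 CPM in control, 179.3 in IR 1, 36.0 in IR 2, and 62.6 and 40.9 in IR_Pra, the same order of the IR libraries as FDPS.

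The sterol arm joins farnesyl units into squalene and closes and trims the ring to cholesterol. Its 11 genes had a median log2 difference of 0.69 in IR against control. None passed with edgeR, DESeq2 or voom, and 1 had an unadjusted p under 0.05 with edgeR, against 30.2% of all genes. The median depended on 1 animal, being -0.72 without IR 1 and 1.33 without IR 2. HSD17B7, a keto reductase of ring demethylation, had 9.23 and 7.59 CPM in control, against 21.1 and 11.8 in IR, and 10.7 and 9.003 in IR_Pra (0.97 ± 0.36, adjusted p = 0.141). NSDHL, the decarboxylating enzyme of the same complex, had 26.8 and 22.2 CPM in control, while IR had 79.0 and 27.8 and IR_Pra had 37.5 and 26.0 (1.12 ± 0.51, adjusted p = 0.198). LSS, which closes the lanosterol ring, had 105.4 and 37.1 CPM in control, compared with 192.0 and 117.1 in IR and with 124.1 and 80.1 in IR_Pra (1.12 ± 0.55, adjusted p = 0.230). These 3 were the genes of the sterol arm with both IR libraries above both controls. Without IR 1 the log2 difference was 0.49 for HSD17B7 and 0.18 for NSDHL, and without IR 2 it was 1.33 and 1.69. 

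In the other 8 genes of the sterol arm IR 2 was below both controls while IR 1 was above them. MSMO1, the methyl sterol oxidase, showed the widest gap, with 62.5 and 38.1 CPM in control, 165.1 in IR 1 and 14.4 in IR 2. CYP51, the lanosterol demethylase, had 110.0 and 63.3 CPM in control, 149.5 in IR 1 and 18.1 in IR 2. DHCR7, the final reductase, had 78.4 and 35.1 CPM in control, 122.3 in IR 1 and 16.3 in IR 2. IR 1 exceeded IR 2 by 11.5-fold, 8.28-fold and 7.48-fold for these genes, and by 1.64 to 2.84-fold for LSS, HSD17B7 and NSDHL. FDFT1 (squalene synthase), EBP (the sterol isomerase), SC5D (a desaturase) and TM7SF2 (a ring reductase) gave IR 1 to IR 2 ratios of 4.45, 5.25, 5.67 and 2.33. SQLE, squalene epoxidase, had 22.0 and 19.1 CPM in control, 53.6 in IR 1, 12.5 in IR 2, and 50.5 and 23.9 in IR_Pra. Both IR_Pra values of SQLE were above both controls (0.86 ± 0.69, adjusted p = 0.9998).

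With pravastatin, the 2 animals differed in the synthesis genes, and most values of IR_Pra 1 were above the controls. Both IR_Pra values fell inside the range of the IR pair for 9 of 17 genes, against 19.6% of all genes. The median log2 difference of IR_Pra from IR was -0.85 for the mevalonate arm and -0.38 for the sterol arm, beside -0.02 over all genes. Without IR 1 these medians were 0.34 and 1.10, so their sign came from that animal. Against control the medians were 0.34 and 0.28, beside 0.00 over all genes, and none of the 17 passed or had an unadjusted p under 0.05. Of the treated animals, IR_Pra 1 was above both controls for 13 of 17 genes (38.5% of all genes) and IR_Pra 2 for 2 of 17 (34.7%), and IR_Pra 1 was above IR_Pra 2 for 16 of 17 (50.4%).

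Sterol sensing genes had 1 member that was lower in both pravastatin-treated animals than in all 4 others. SREBF1, which encodes the SREBP1 regulator of fatty acid synthesis and is itself an LXR target, had 184.7 and 126.1 CPM in control, against 222.7 and 148.7 in IR, and 72.6 and 89.8 in IR_Pra. The log2 difference was -1.19 ± 0.33 against IR (unadjusted p = 0.0113, adjusted p = 0.111) and -0.94 ± 0.33 against control (unadjusted p = 0.0291, adjusted p = 0.9998). It did not pass in either comparison with edgeR, while DESeq2 gave an adjusted p of 0.0238 against IR. Against IR, edgeR gave a log2 difference of -1.45 without IR 2 and -0.87 without IR 1.

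The other sensing genes showed no such order. SREBF2, which encodes the SREBP2 regulator of sterol synthesis, had 410.5 and 302.5 CPM in control, while IR had 399.4 and 194.2 and IR_Pra had 363.7 and 227.8. SCAP, the escort protein of SREBPs, had 91.4 and 86.0 CPM in control, compared with 72.4 and 83.9 in IR and with 76.0 and 92.5 in IR_Pra. INSIG1, a sterol-dependent brake on SCAP that SREBPs induce, had 112.5 and 71.3 CPM in control, 185.4 in IR 1, 49.1 in IR 2, and 100.04 and 76.0 in IR_Pra, the split of the synthesis genes. INSIG2, its paralog, was below control in both IR libraries, with 9.21 and 8.19 CPM in control, against 4.92 and 1.98 in IR, and 6.28 and 7.58 in IR_Pra (-1.34 ± 0.48, adjusted p = 0.131). In IR against control its log2 difference was -2.14 without IR 1 and -0.82 without IR 2.

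Among the uptake and storage genes, NPC1 and SCARB1 came nearest to the threshold in IR against control, in opposite directions. NPC1 (Entrez 397591, chromosome 6, 108403126 to 108450486), which exports cholesterol from lysosomes, had 115.7 and 70.5 CPM in control, while IR had 34.5 and 22.7 and IR_Pra had 49.9 and 65.1 (-1.70 ± 0.36, adjusted p = 0.0517). SCARB1 (Entrez 397018, chromosome 14, 28301421 to 28393568), the HDL receptor, had 25.7 and 20.7 CPM in control, compared with 52.5 and 52.1 in IR and with 27.2 and 37.5 in IR_Pra (1.17 ± 0.26, adjusted p = 0.0558). In both genes the 3 groups did not overlap and IR_Pra lay between the others. The differences of IR_Pra from IR were 1.01 ± 0.35 for NPC1 and -0.69 ± 0.26 for SCARB1 (adjusted p = 0.162 and 0.178). Macrophage, smooth muscle, and fibroblast and matrix marker sums had the same order of groups as SCARB1, and their part was not tested. DESeq2 gave adjusted p of 0.00152 and 0.00350 for the 2 genes in IR against control, and edgeR with genes of at least 5 CPM gave 0.0473 and 0.0455. Reads of NPC1 share their region with the overlapping gene C6H18orf8, and the sources do not say whether counting used strand. This limit also applies to ACAT2 with TCP1, PMVK with KCNN3, NR1H3 with ACP2 and MADD, ABCG5 with DYNC2LI1, and STARD4 with a long noncoding RNA.

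**Figure D3:**
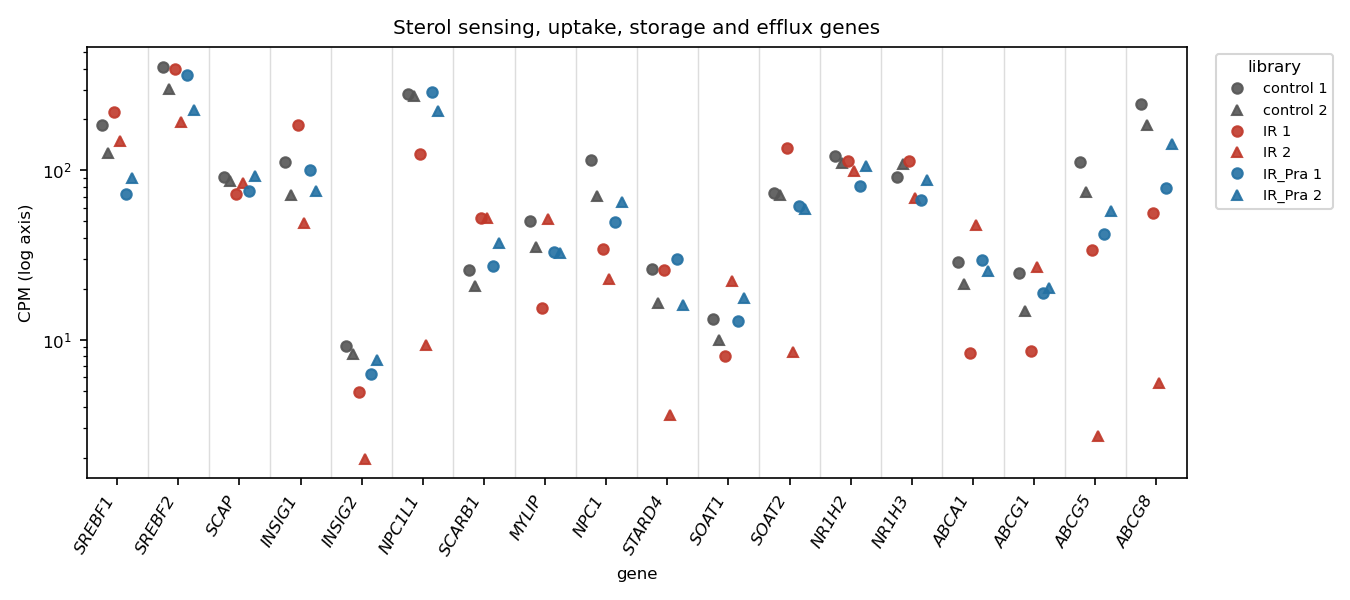
CPM on a log axis of the sensing, uptake, storage and efflux genes, with 1 point per library (circle for animal 1, triangle for animal 2, grey for control, red for IR, blue for IR_Pra). The red triangle (IR 2) is the lowest point for NPC1L1, SOAT2, STARD4, ABCG5 and ABCG8 and the highest for ABCA1, ABCG1, MYLIP and SOAT1.

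The brush border sterol transporters were lower in both irradiated animals, and by far in IR 2. NPC1L1, the cholesterol importer of the brush border, had 283.0 and 275.7 CPM in control, 124.7 in IR 1, 9.26 in IR 2, and 291.8 and 223.0 in IR_Pra (IR against control -2.06 ± 1.04, adjusted p = 0.238). ABCG8 had 245.3 and 184.7 CPM in control, 55.8 in IR 1, 5.55 in IR 2, and 79.0 and 142.6 in IR_Pra (-2.81 ± 1.001, adjusted p = 0.130). ABCG5, its partner in the pump that returns sterols to the lumen, had 112.2 and 74.3 CPM in control, 34.0 in IR 1, 2.69 in IR 2, and 42.1 and 57.9 in IR_Pra (-2.35 ± 1.04, adjusted p = 0.192). The 2 pump genes lie next to each other on chromosome 3 (96596975 to 96616224 and 96616304 to 96656893). Both IR_Pra values of the pump genes were below both controls and above both IR values, while those of NPC1L1 were on either side of the controls. DESeq2 called ABCG8 in IR against control (adjusted p = 0.0173), and its log2 difference with edgeR was -5.28 without IR 1 and -1.95 without IR 2 (adjusted p = 0.00396 and 0.0378). Of 11 enterocyte markers, 6 were below both controls in IR 1 and 4 above them, where 43.8% of all genes were below. In IR 2, 10 of 11 were below both controls, against 43.2% of all genes. The part of these markers in the lower transporter levels was not tested. NPC1L1 and ABCG5 also passed with edgeR without IR 1 and without IR 2, ABCG5 at a log2 difference of -5.11 and -1.46 (adjusted p = 0.00322 and 0.0463).

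Esterification and intracellular transport genes differed between IR 1 and IR 2, not all in the same direction. SOAT2, the acyltransferase that esterifies cholesterol in enterocytes, had 74.0 and 71.6 CPM in control, 136.0 in IR 1, 8.45 in IR 2, and 61.5 and 59.5 in IR_Pra. STARD4, a cytosolic sterol carrier that SREBP2 induces, had 26.1 and 16.4 CPM in control, 25.9 in IR 1, 3.61 in IR 2, and 29.9 and 15.9 in IR_Pra. SOAT1, the widely expressed acyltransferase that is abundant in macrophages, had 13.2 and 9.92 CPM in control, 8.06 in IR 1, 22.2 in IR 2, and 12.8 and 17.7 in IR_Pra. The 2 acyltransferases thus had opposite orders in the irradiated animals. IR 2 was the lowest library for SOAT2 and STARD4, as for 24% of all genes. None of the 3 passed in any comparison of all 6 libraries. The log2 ratios to control in IR 1 and IR 2 were 0.90 and -3.10 for SOAT2, and 0.32 and -2.51 for STARD4. The direction of SOAT2 in a fit without IR 1 or IR 2 is therefore that of the remaining IR animal.

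Among the members that LXR is known to raise, ABCA1, ABCG1 and MYLIP had higher values in IR 2 than in IR 1, while SREBF1, ABCG5 and ABCG8 had higher values in IR 1. ABCA1, which loads cholesterol onto apolipoprotein A-I, had 28.7 and 21.3 CPM in control, 8.34 in IR 1, 47.7 in IR 2, and 29.6 and 25.4 in IR_Pra. ABCG1, which loads HDL, had 24.8 and 14.8 CPM in control, 8.54 in IR 1, 26.8 in IR 2, and 18.9 and 20.1 in IR_Pra. MYLIP, a ubiquitin ligase, had 50.3 and 35.4 CPM in control, 15.4 in IR 1, 51.6 in IR 2, and 33.1 and 32.6 in IR_Pra. For ABCA1, ABCG1 and MYLIP, IR 1 was the lowest library (26.8% of all genes) and IR 2 the highest (30.1% of all genes), with both IR_Pra libraries between them. For these 3 genes the groups overlapped and none passed (IR against control 0.17 ± 0.73, -0.16 ± 0.55 and -0.35 ± 0.55). Their log2 ratios to control had opposite signs in IR 1 and IR 2. The values were -1.56 and 0.95 for ABCA1, -1.16 and 0.48 for ABCG1, and -1.45 and 0.29 for MYLIP. A fit without IR 1 or IR 2 therefore follows the remaining IR animal alone and changes the direction. With the trend on transcript length removed, the log2 ratio of IR 1 to control moved from -1.56 to -0.87 for ABCA1, from -1.16 to -0.61 for ABCG1 and from -1.45 to -1.37 for MYLIP. Neither LXR gene itself passed in any comparison of all 6 libraries. NR1H2 (LXR beta) had 121.0 and 111.2 CPM in control, against 113.1 and 99.3 in IR, and 81.4 and 105.6 in IR_Pra. NR1H3 (LXR alpha) had 91.6 and 108.6 CPM in control, while IR had 114.4 and 69.1 and IR_Pra had 67.0 and 88.1. Both had IR_Pra values below both controls (-0.31 ± 0.24 and -0.37 ± 0.32, adjusted p = 0.9998).

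None of the enzymes that make or attach prenyl groups passed in the fit of all libraries. With RHOA, RHOB and RAC1 they form a role of 9 genes. IR and control were apart for each of the 9 (5 higher, 4 lower), against 59.8% of all genes. IR_Pra and IR were apart for 7 (3 higher, 4 lower), against 53.9% of all genes. FNTB, the catalytic subunit of farnesyltransferase, had 10.6 and 11.8 CPM in control, compared with 16.4 and 19.9 in IR and with 13.7 and 13.3 in IR_Pra (IR against control 0.70 ± 0.25, adjusted p = 0.130). Without IR 2 its log2 difference was 0.55. GGPS1, which makes geranylgeranyl diphosphate, had 23.2 and 21.8 CPM in control, against 14.8 and 16.1 in IR, and 24.0 and 18.0 in IR_Pra (-0.54 ± 0.25, adjusted p = 0.212). PGGT1B, the catalytic subunit of geranylgeranyl transferase I, had 15.6 and 14.7 CPM in control, while IR had 10.8 and 13.2 and IR_Pra had 20.1 and 14.2. FNTB thus lay above control in IR and GGPS1 and PGGT1B below it, none past the threshold. The trend on transcript length bore on this contrast in IR 1. With it removed, the log2 ratio of IR 1 to control moved from -0.60 to -0.12 for GGPS1 and from -0.49 to 0.04 for PGGT1B. For FNTB it moved from 0.55 to 0.51. In IR 2 the ratios moved from -0.48 to -0.43 for GGPS1, from -0.20 to -0.13 for PGGT1B and from 0.83 to 0.72 for FNTB. FNTA, the subunit shared by both transferases, and RABGGTA and RABGGTB, which modify Rab proteins, had log2 differences between -0.31 and 0.26 in IR against control. None of these genes came near the threshold with pravastatin (adjusted p from 0.315 to 0.775 against IR).

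**Figure D4:**
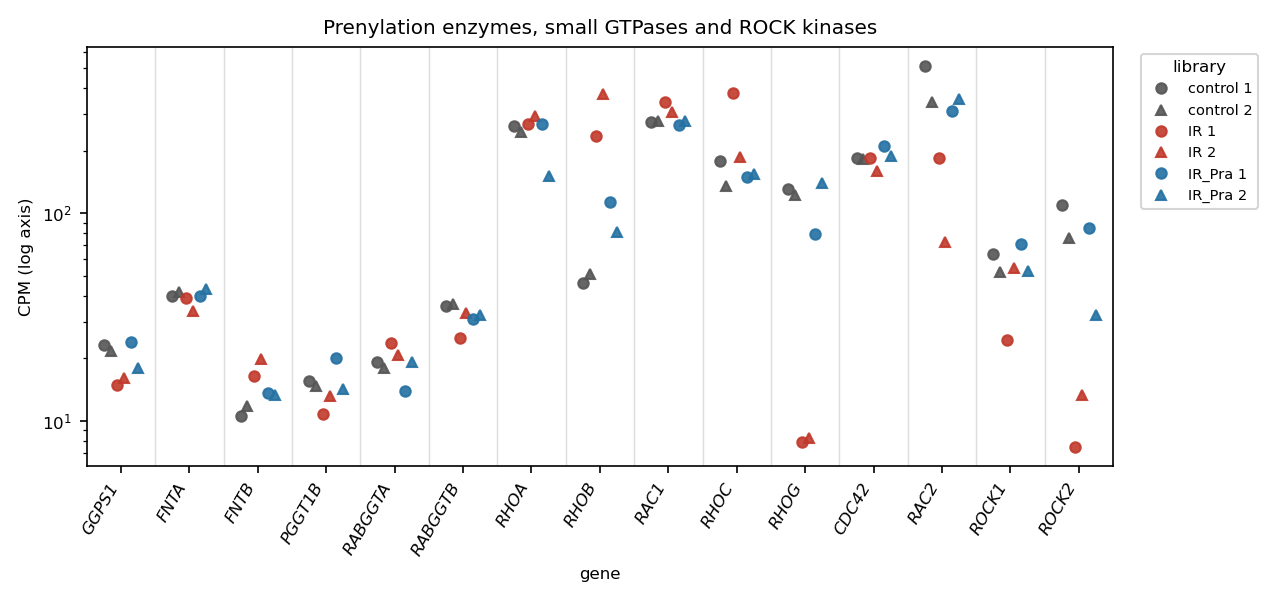
CPM on a log axis of the prenylation enzymes, small GTPases and ROCK kinases, with 1 point per library (circle for animal 1, triangle for animal 2, grey for control, red for IR, blue for IR_Pra). RHOB is higher and RHOG and ROCK2 are lower in both red points than in the grey points, while the points of CDC42 and RAC1 lie close together.

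Of the other small GTPases among the members, neither RHOA nor RAC1 passed. RHOA, the regulator of actin stress fibres, had 262.8 and 245.2 CPM in control, compared with 268.3 and 295.7 in IR and with 269.7 and 151.7 in IR_Pra (IR against control 0.15 ± 0.33, adjusted p = 0.790). RAC1, which drives lamellipodia, had 274.8 and 279.0 CPM in control, against 342.4 and 306.4 in IR, and 265.0 and 279.6 in IR_Pra (0.23 ± 0.24, adjusted p = 0.557). Per length they were the most abundant members in control, with 151.6 ± 0.110 FPKM for RAC1 and 127.4 ± 4.37 FPKM for RHOA (SD, n = 2), against 15.6 ± 1.32 FPKM for RHOB. In IR the mean of RHOB was 93.8 FPKM, still below RHOA at 134.6 and RAC1 at 162.0. The most abundant synthesis gene in control was FDPS at 64.6 ± 24.3 FPKM, and the lowest protein-coding members were ABCA1 at 2.30 ± 0.458 FPKM and PGGT1B at 2.38 ± 0.0737.

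Of 23 other genes of prenylation and small GTPase signalling, 2 passed in IR against control and both fell, where 6.06% of all genes passed. RHOG (Entrez 100144504, chromosome 9, 6283558 to 6295376), a Rac-like GTPase, had 131.4 and 122.9 CPM in control, while IR had 7.88 and 8.32 and IR_Pra had 79.4 and 140.0 (-3.97 ± 0.35, adjusted p = 0.0344). ROCK2 (Entrez 397445, chromosome 3, 125353063 to 125493368), a kinase that RHOA activates, had 109.7 and 75.9 CPM in control, compared with 7.52 and 13.3 in IR and with 85.3 and 32.4 in IR_Pra (-3.16 ± 0.57, adjusted p = 0.0423). RHOG in IR_Pra overlapped control and differed from IR by 3.76 ± 0.35, which did not pass (adjusted p = 0.0612), and ROCK2 differed from IR by 2.50 ± 0.55 (adjusted p = 0.0915). DESeq2 gave ROCK2 an adjusted p of 0.000668 in that comparison, and edgeR gave 0.0484 without IR 2 and a log2 difference of 1.59 without IR_Pra 1 (adjusted p = 0.380). B cell markers summed to 426 and 253 CPM in control, against 17.9 and 17.1 in IR, and 140 and 356 in IR_Pra, the same order of groups as RHOG, and their part was not tested. Both calls were lost without control 1, control 2, IR_Pra 1 or IR_Pra 2 (adjusted p from 0.101 to 0.238), with a replicate block (0.0754 for RHOG and 0.0837 for ROCK2) and with only the 4 libraries of the comparison (0.0995). For RHOG in IR_Pra against IR, DESeq2 gave an adjusted p of 2.21e-18, and edgeR gave 0.00873 without IR 1 and 0.0261 without IR 2. ROCK2 also lost its call with library size as the only scaling (adjusted p = 0.0527). The list's median log2 difference was -0.36, beside 0.03 over all genes. With pravastatin against control, none of the 23 passed and 0 had an unadjusted p under 0.05, against 3.42% of all genes. The 2 with the smallest p there were RAP1B, a GTPase of integrin signalling (0.33 ± 0.22), and ZMPSTE24, a CAAX protease (-0.59 ± 0.46).

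Of 18 other sterol genes found, none passed with edgeR or limma voom in any comparison. An unadjusted p under 0.05 with edgeR was reached by 3 in IR against control, 2 in IR_Pra against IR and 0 in IR_Pra against control. The shares of all genes were 30.2%, 24.5% and 3.42%. DESeq2 called 3 in IR against control (GRAMD1B, GRAMD1C and LIPA), 1 in IR_Pra against IR (GRAMD1C) and 0 in IR_Pra against control. Its shares of all genes were 22.7%, 15.9% and 0.396%. LIPA, the lysosomal lipase that frees cholesterol from its esters, had 73.9 and 75.9 CPM in control, while IR had 125.9 and 176.6 and IR_Pra had 78.7 and 95.9 (IR against control 1.01 ± 0.26, adjusted p = 0.0703). GRAMD1C, a sterol carrier at membrane contact sites, had 29.5 and 44.6 CPM in control, compared with 10.9 and 2.76 in IR and with 37.9 and 29.6 in IR_Pra (-2.44 ± 0.65, adjusted p = 0.0746). DESeq2 gave LIPA an adjusted p of 0.00950 in IR against control, and GRAMD1C 0.00413 there and 0.0110 in IR_Pra against IR. For GRAMD1C, edgeR in IR against control gave -3.75 without IR 1 and -1.77 without IR 2 (adjusted p = 0.00465 and 0.0324), and in IR_Pra against IR it gave 3.61 and 1.63 (0.00807 and 0.0446). For LIPA, the log2 difference in IR against control was 1.23 without IR 1 and 0.75 without IR 2. In IR_Pra against IR it was -1.01 and -0.53. CYP27A1, which makes 27-hydroxycholesterol, was lowest in IR_Pra 1 at 25.2 CPM, with 32.7 in IR_Pra 2, 49.8 and 70.8 in control, and 79.8 and 31.4 in IR. ABCG4, a relative of ABCG1, stayed at or below 2.55 CPM.

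Of 10 lipogenic targets of SREBPs, none passed with edgeR or limma voom in any comparison. An unadjusted p under 0.05 with edgeR was reached by 5 in IR against control, 0 in IR_Pra against IR and 1 in IR_Pra against control. The shares of all genes were 30.2%, 24.5% and 3.42%. DESeq2 called SCD, LPIN1 and ME1 in IR against control (22.7% of all genes) and 0 in the others (15.9% and 0.396%). In IR against control, 6 were higher in both IR libraries than in both controls (29.8% of all genes were). SCD, the stearoyl-CoA desaturase, had 21.0 and 12.2 CPM in control, against 42.6 and 42.6 in IR, and 27.7 and 26.2 in IR_Pra (1.36 ± 0.31, adjusted p = 0.0581). Its adjusted p was 0.00385 with DESeq2, 0.0485 with the 5 CPM filter, 0.0488 with the length trend removed, 0.0359 without IR 1 and 0.0486 without IR 2. LPIN1, a phosphatidate phosphatase, had 35.1 and 28.0 CPM in control, while IR had 19.0 and 17.9 and IR_Pra had 18.9 and 22.0 (-0.78 ± 0.24 and, for IR_Pra against control, -0.63 ± 0.24, adjusted p = 0.101 and 0.9998), with 0.0416 by DESeq2 for IR against control. ACSS2, which makes acetyl-CoA from acetate, had 92.6 and 108.4 CPM in control, compared with 107.6 and 52.2 in IR and with 148.9 and 119.7 in IR_Pra. The median log2 difference of the list in IR_Pra against control was 0.37, beside -0.94 for SREBF1, with 8 of 10 above 0 (50.6% of all genes).

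**Figure D5:**
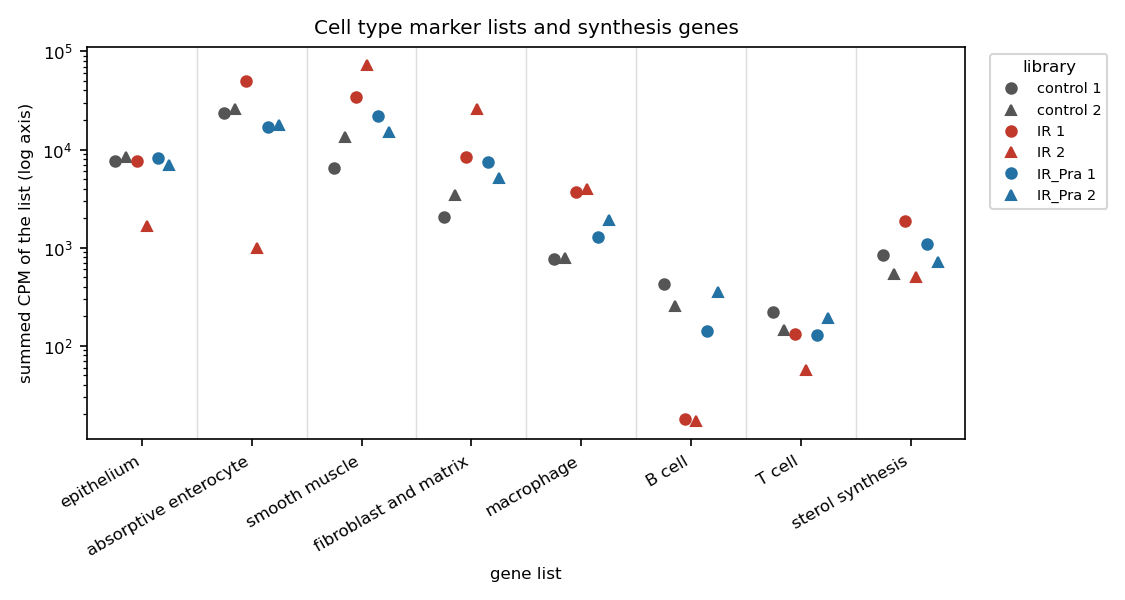
Summed CPM on a log axis of 7 cell type marker lists and of the 17 synthesis genes, with 1 point per library (circle for animal 1, triangle for animal 2, grey for control, red for IR, blue for IR_Pra). IR 2 is the lowest library for epithelium, enterocyte and synthesis sums, IR 1 is the highest for enterocyte (through 3 markers) and synthesis sums, and both are low for B cells.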

How the data were processed

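Per the file headers, the deposited table gives a read count and an FPKM value (counts scaled by length and depth) for each gene and library. Per the submitters' processing notes, the authors used bcl2fastq 2.20.0, Trimmomatic, HISAT2 2.1.0 and StringTie 2.1.3b, and named the builds Sscrofa11.1 and GRCh38; the counting step is not stated there. Coordinates come from RefSeq genes of Sscrofa11.1, where all 45 rows matched by Entrez ID. Rows without a symbol (24 rows, 0.00906% to 0.0385% of counts) did not enter the fit. The tests ran in edgeR 4.0.16 under R 4.3.3: filterByExpr by group (18197 genes), TMM scaling, and 1 quasi-likelihood fit of all 6 libraries with a term per group (3 residual degrees of freedom), tested two-sided with Benjamini-Hochberg adjustment over all genes. CPM values use the TMM-scaled library sizes. The standard error of a log2 fold change was taken from the F statistic, and values after ± in log2 are SE. FPKM was used to compare genes only, with no test; 70.9% of its values lay within 1% of counts divided by total and 1 length per gene. Transcript length for the trend was derived from counts and FPKM. The script was tested on simulated data.

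The members, roles and gene lists were chosen with earlier results of these data known. Every member is named; values in each library were required for members past the threshold and for the 2 with the smallest p in each role and comparison, and for list genes by the same rule per list. Alternatives used limma 3.58.1 and DESeq2 1.42.0. The planned description of promoter motifs and protein ends was not made, as its reference sequences were not used here.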

Additional observations from a re-analysis of the deposited data

How the results depend on the processing

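The count of members called in IR against control was 1. It was 4 with DESeq2 (ABCG8, NPC1, RHOB, SCARB1), 3 with a filter of 5 CPM in 2 libraries, 3 at an adjusted p under 0.10, and 0 with only the 4 libraries of the comparison. Leaving out 1 library gave 0 to 18: 14 without IR 1, 18 without IR 2, and 0 without either control or either IR_Pra library. In IR_Pra against IR the count was 0, with 2 in DESeq2, 1 at an adjusted p under 0.10, and 0 to 11 over the libraries left out (11 without IR 1 and 11 without IR 2). In IR_Pra against control it was 0 in all 17 alternatives. Over all 18197 genes, IR against control gave 1103 calls (616 higher), and 4131 with DESeq2. It gave 475 (182 higher) with library size alone, 3452 at an adjusted p under 0.10, and 0 with only its 4 libraries. IR_Pra against IR gave 1, 2885 with DESeq2, 1328 at an adjusted p under 0.10 and 0 with limma voom. It gave 2 with library size alone, 2 without a filter and 12 with the length trend removed. IR_Pra against control gave 0, and 72 with DESeq2. Library size alone moved the median of all genes in IR_Pra against IR to 0.14.

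The log2 fold change of RHOB in IR against control lay between 2.27 and 2.95 in 16 alternatives. Correlations of same-numbered deviations were 0.0642, -0.149 and -0.133. With 2 animals a group, they cannot settle whether the replicate numbers pair animals. A replicate block left 0 members and 0 genes called in IR against control. Where calls changed, the cause was not tested.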
